A study of Mus musculus with 16 samples.

Results

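Iodide handling and thyroid hormone synthesis were followed through 9 genes, Slc5a5, Slc26a4, Slc26a7, Tg, Duox1, Duox2, Duoxa1, Duoxa2 and Iyd, of the 21640 genes in the count table. They were chosen by name for their roles in the thyroid, with earlier results of these data known. They were matched by Ensembl identifier without its version. All 9 were found, and all 9 passed the filter on low counts at both time points. The data are bulk RNA-seq of whole thyroids of 16 WT C57Bl/6J mice, with 1 library per mouse. The mice, male per the study's text, were 8 weeks old when the diet comparison began. According to that text, all had been given the control chow before then to acclimate. At each time point 4 mice had received the control diet (CD, chow) and 4 the HF+SD (high-fat food together with sucrose water), for 3 weeks in one set and for 6 weeks in the other. All groups share genotype and strain and differ by diet and time. The library names of the 3-week mice begin with one number in the labels and those of the 6-week mice with another, so that time point and library series cannot be told apart. Diets were therefore compared within a time point, and no level was tested between time points. The comparison asks how overnutrition changes expression of the genes that make thyroid hormone.

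Thyrocytes, the epithelial cells of the thyroid follicle, take up iodide from blood through the sodium/iodide symporter NIS (Slc5a5) and release it into the colloid at the apical membrane, where pendrin (Slc26a4) and Slc26a7 are anion transporters. There, iodide is attached to tyrosines of thyroglobulin (Tg) with hydrogen peroxide made by the dual oxidases (Duox1, Duox2) together with their maturation factors (Duoxa1, Duoxa2). When thyroglobulin is digested, iodotyrosine deiodinase (Iyd) recovers iodide from the iodotyrosines that are not part of the hormone. Thyrotropin (TSH) drives much of this program through its receptor on thyrocytes.

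The libraries held 30025256 to 48508653 counts. Pax8, Nkx2-1, Foxe1 and Tshr, which define thyrocytes, were detected in every library, at 37.2 to 631 CPM (counts scaled to library sizes with TMM factors). Of 29 skeletal muscle genes tested at 6 weeks, 28 fell with the HF+SD and 0 rose. Their summed share of all counts in the 4 CD mice of 6 weeks was 17.0% in M45, 12.2% in M48, 4.00% in M43 and 0.115% in M22, against 0.142% to 0.476% in HF+SD mice. The 3-week share was 0.0129% to 0.0189% in CD and 0.0223% to 0.0260% in HF+SD mice, and 3 of 24 genes tested rose. Over all genes tested, 9.55% fell at 6 weeks and 9.07% rose at 3 weeks. The 3-week count of muscle genes is near that share and is not a result about these genes. The geometric mean of 9 thyrocyte reference genes at 6 weeks was 286 CPM in M22, 153 to 167 CPM in the other CD mice and 242 to 271 CPM in HF+SD mice, and at 3 weeks it was 301 to 367 CPM over both diets. Of these 9 genes, Cdh16 and Cdh1 rose at 6 weeks, and Cdh16 rose and Krt18 fell at 3 weeks. M43, M45 and M48 therefore stand apart, and the 6-week results are also given with these libraries treated differently. In bulk tissue, fewer cells of a type and less RNA per cell cannot be told apart.

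Promoter sequences (GRCm38.p6, 250 bases before to 50 after the start site, from RefSeq) were matched for 7 of the 9 genes, by symbol. Those of the genes that passed the test at both time points are shown, with Duoxa2 as the partner of Duoxa1. They are shown so that the start regions of genes that moved together can be compared. Searched were TCAAG (the core of an NKX2-1 site), TATAAA (the TATA box), and TGACG and TGACGTCA (a partial and a full cAMP response element, the second of which holds the first). Capitals mark TCAAG on either strand, which reads CTTGA where it lies opposite, and TATAAA on the coding strand.
Slc5a5 (GRCm38.p6, chr8:70892708-70893007, - strand): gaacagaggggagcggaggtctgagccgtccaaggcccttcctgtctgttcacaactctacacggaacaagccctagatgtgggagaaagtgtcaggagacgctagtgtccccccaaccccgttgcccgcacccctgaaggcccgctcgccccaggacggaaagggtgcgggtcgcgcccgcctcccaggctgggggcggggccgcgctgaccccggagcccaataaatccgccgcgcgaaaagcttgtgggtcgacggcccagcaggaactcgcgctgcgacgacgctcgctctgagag
Slc26a4 (GRCm38.p6, chr12:31559935-31560234, - strand): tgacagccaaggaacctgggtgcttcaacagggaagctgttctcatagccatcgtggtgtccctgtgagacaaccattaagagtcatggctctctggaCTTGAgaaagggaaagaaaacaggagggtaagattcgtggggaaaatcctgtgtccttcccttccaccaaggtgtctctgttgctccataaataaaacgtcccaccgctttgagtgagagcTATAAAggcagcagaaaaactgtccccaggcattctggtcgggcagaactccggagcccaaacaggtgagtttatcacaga
Iyd (GRCm38.p6, chr10:3540024-3540323, + strand): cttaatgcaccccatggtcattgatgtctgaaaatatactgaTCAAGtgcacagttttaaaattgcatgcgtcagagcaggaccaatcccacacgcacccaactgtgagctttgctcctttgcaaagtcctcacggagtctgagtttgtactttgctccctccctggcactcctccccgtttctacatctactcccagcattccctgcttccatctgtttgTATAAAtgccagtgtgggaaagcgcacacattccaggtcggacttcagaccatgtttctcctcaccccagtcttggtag
Duoxa2 (GRCm38.p6, chr2:122298650-122298949, + strand): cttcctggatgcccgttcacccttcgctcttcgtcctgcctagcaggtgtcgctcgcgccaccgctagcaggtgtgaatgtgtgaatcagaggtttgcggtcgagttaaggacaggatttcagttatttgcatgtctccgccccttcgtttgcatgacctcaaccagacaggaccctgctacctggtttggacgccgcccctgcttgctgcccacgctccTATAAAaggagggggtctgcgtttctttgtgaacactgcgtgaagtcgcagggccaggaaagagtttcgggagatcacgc
Duoxa1 (GRCm38.p6, chr2:122313681-122313980, - strand): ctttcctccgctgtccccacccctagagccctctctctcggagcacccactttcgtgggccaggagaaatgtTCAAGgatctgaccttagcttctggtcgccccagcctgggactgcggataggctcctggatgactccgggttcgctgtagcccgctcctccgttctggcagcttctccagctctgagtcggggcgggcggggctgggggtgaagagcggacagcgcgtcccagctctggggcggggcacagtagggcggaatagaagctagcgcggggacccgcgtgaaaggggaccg
None of these motifs occurred in the Slc5a5 window, in which 67% of the bases are G or C. Slc26a4 held TATAAA at positions -31 to -26 from the start site and TCAAG at -152 to -148 on the opposite strand. Iyd held TATAAA at -29 to -24, TCAAG at -208 to -204 and TGACG at -181 to -177 on the opposite strand. Duoxa2 held TATAAA at -30 to -25, and Duoxa1 held TCAAG at -178 to -174. Among all 32851 promoters of this length, 40.7% held TCAAG on either strand and 8.32% held TATAAA on the coding strand, and on either strand 20.8% held TGACG and 1.79% held TGACGTCA. A match of these letters is a description of the window and not a site. Duox2 and Duoxa2 start 673 bases apart on opposite strands, and Duox1 and Duoxa1 start 1942 bases apart in the same head-to-head way.

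Of the 9 genes, 4 rose on the HF+SD at 6 weeks (Slc5a5, Slc26a4, Duoxa2 and Iyd) and 4 rose at 3 weeks (Slc5a5, Slc26a4, Duox2 and Iyd). Duoxa1 fell at both time points, and the other 4 at each time did not pass an adjusted p of 0.05. Over all genes tested, 12% rose and 9.55% fell at 6 weeks (21.5% in all), and 9.07% rose and 5.78% fell at 3 weeks (14.9% in all). The median log2 fold change of the 9 genes was 0.70 at 6 weeks and 0.56 at 3 weeks, beside -0.01 over all genes at each time. With an added fold change minimum (absolute log2 fold change above 1), 4 rose and 1 fell at 6 weeks, where 6.64% and 6.01% of all genes did so (12.6% together). At 3 weeks 2 rose (Slc5a5 and Slc26a4) and 1 fell, against 3.25% and 1.4% of all genes (4.66% together). All 4 HF+SD mice were above all 4 CD mice for 4 of the 9 genes at each time, and for 13.8% of all genes at 6 weeks and 13.1% at 3 weeks. They were below all CD mice for Duoxa1 at 6 weeks and for Duox1 and Duoxa1 at 3 weeks, and for 9.97% and 10.5% of all genes.

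**Figure D1:**
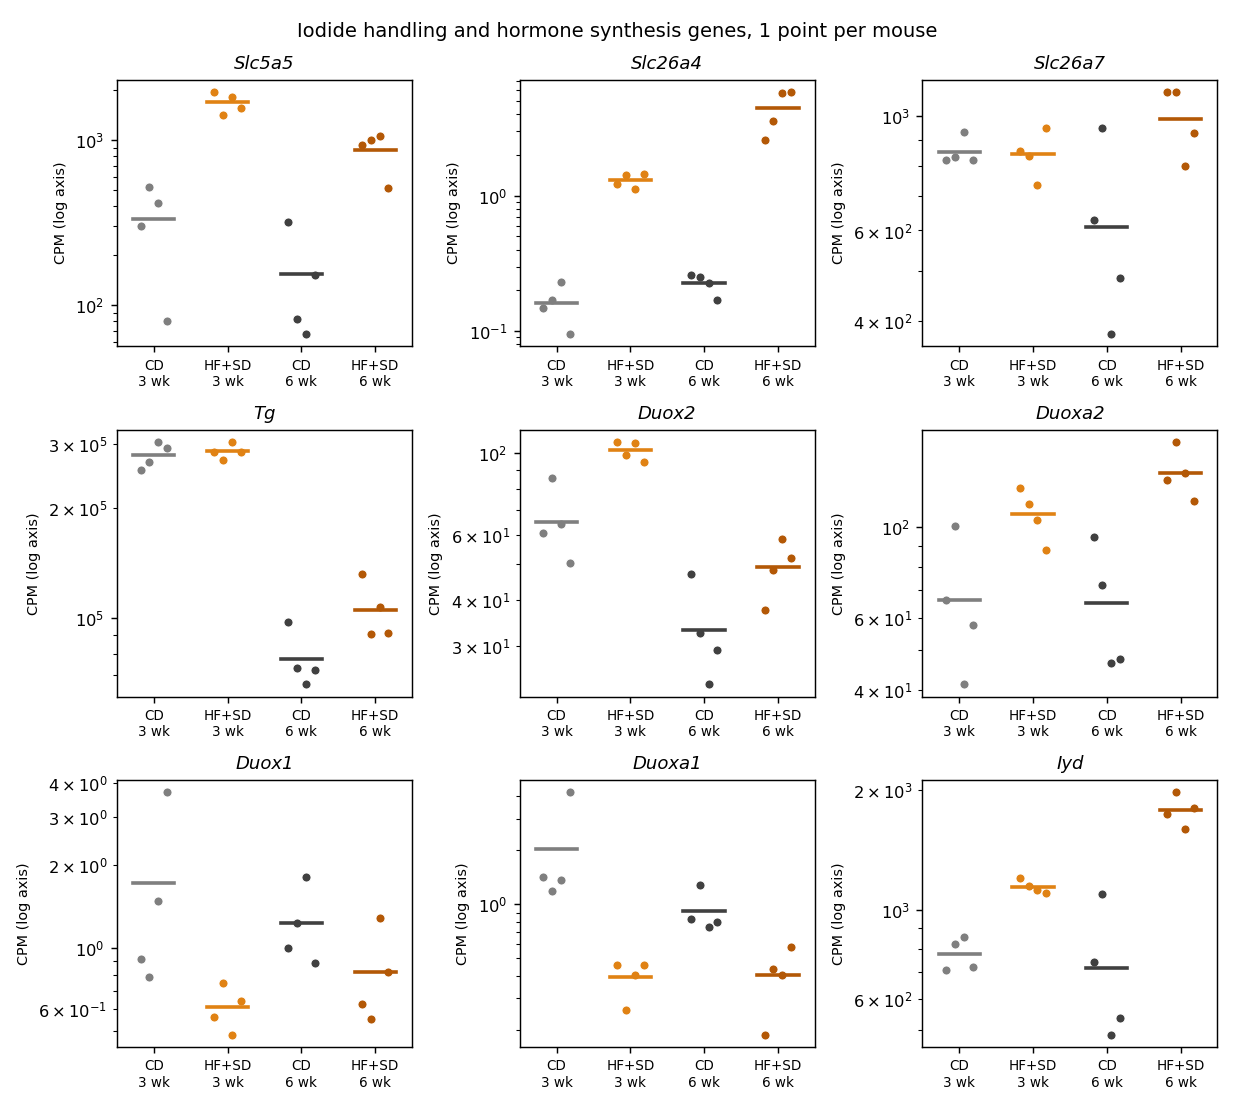
Levels of the 9 genes in CPM on a log axis that differs between panels, 1 point per mouse and a line at the mean of the 4 mice of a group. Slc5a5, Slc26a4, Iyd and Duoxa1 show no overlap between diets at either time point, whereas Tg and Slc26a7 overlap at both.

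Slc5a5 (ENSMUSG00000000792.3) encodes NIS, which brings iodide into the thyrocyte. At 6 weeks its level in CD mice was 66.4 CPM (M45), 82.1 (M43), 151 (M48) and 320 (M22). In HF+SD mice it was 512 CPM (M5), 932 (M18), 995 (M34) and 1051 (M35). The diets did not overlap, and M22 was the highest of the CD mice. Slc5a5 rose 5.63-fold, a log2 fold change of 2.49 (SE 0.50, adjusted p = 0.00956, edgeR quasi-likelihood test). Without M22 the log2 fold change was 3.13 (adjusted p = 0.000643). The CD mice left in that fit had the highest muscle shares and the lowest thyrocyte reference levels at 6 weeks. Diet and these amounts cannot be told apart there. Without M45 and M48 the value was 2.13 and did not pass (edgeR adjusted p = 0.0506).

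At 3 weeks the CD mice had 79.7 CPM (M96), 303 (M53), 418 (M55) and 520 (M54) of Slc5a5. The HF+SD mice had 1555 CPM (M7), 1959 (M19y), 1414 (M20y) and 1831 (M31). The groups did not overlap, and M96 lay far below the other CD mice. The rise was 5.12-fold (log2 2.36, SE 0.45, adjusted p = 0.00833). Leaving out M96 gave a log2 fold change of 2.03, and over all 8 mice left out in turn it ran from 2.03 to 2.66, always past the threshold. With a skeletal muscle score as covariate the 3-week value was 3.80 (adjusted p = 0.000218). The muscle share at 3 weeks did not overlap between diets (0.0129% to 0.0189% in CD, 0.0223% to 0.0260% in HF+SD mice). This covariate and diet are therefore hard to tell apart at 3 weeks. The coefficient of variation of Slc5a5 between mice was 75% at 6 weeks and 57.3% at 3 weeks in CD mice, and 28.1% and 14.7% in HF+SD mice, a difference that was not tested.

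Slc26a4 (ENSMUSG00000020651.9) encodes pendrin, an exchanger of chloride and iodide. In CD mice it had few counts, with 6 in M48, 7 in M45, 9 in M22 and 11 in M43 at 6 weeks. In HF+SD mice it had 82 counts in M18, 122 in M34, 212 in M35 and 222 in M5. These are mean levels of 0.227 ± 0.0398 CPM (SD, n = 4) and 4.42 ± 1.62 CPM (SD, n = 4), with no overlap. Slc26a4 rose 19.2-fold (log2 4.26, SE 0.34, adjusted p = 0.000172), and its p ranked 45 of 18249 genes tested. At 3 weeks the counts were 4 (M96), 6 (M53), 6 (M54) and 9 (M55) in CD mice, and 48 (M19y), 53 (M31), 54 (M7) and 55 (M20y) in HF+SD mice, again without overlap. The 3-week rise was 8.02-fold (log2 3.00, SE 0.29, adjusted p = 0.00038, rank 57 of 17238). Counts this low on the CD leave the size of the change less certain than its direction, with 95% intervals for the log2 fold change of 3.48 to 5.03 at 6 weeks and 2.36 to 3.65 at 3 weeks.

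Slc26a7 (ENSMUSG00000040569.14), the abundant apical anion transporter of the same family, did not pass at either time when each time point was fitted on its own. At 6 weeks the CD mice had 377 CPM (M45), 485 (M48), 628 (M22) and 947 (M43), and the HF+SD mice had 798 (M35), 927 (M5), 1112 (M34) and 1114 (M18). The groups overlapped through M43, the highest CD mouse. The log2 fold change was 0.70 (95% interval 0.06 to 1.33, adjusted p = 0.107), and without M43 it was 0.96 and passed (adjusted p = 0.0244). In 1 fit of all 16 libraries it was 0.65 and also passed (adjusted p = 0.0209). The 6-week value was smaller and did not pass on the footings that treat muscle and thyrocyte RNA differently. Scaling to the thyrocyte reference genes gave 0.20 (adjusted p = 0.676). A skeletal muscle score as covariate gave 0.43 (adjusted p = 0.477). Leaving out both M45 and M48 gave 0.34 (adjusted p = 0.387). The 3-week levels were 821 to 931 CPM in CD mice and 733 to 947 CPM in HF+SD mice, which overlapped. The log2 fold change there was -0.02 (95% interval -0.23 to 0.19, adjusted p = 0.927).

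Tg (ENSMUSG00000053469.15) encodes thyroglobulin, the protein on which hormone is made, and was the most abundant of the 9 genes. At 3 weeks it took 26.8% to 29.7% of all counts in CD mice and 27.3% to 29.6% in HF+SD mice. At 6 weeks its share in CD mice was 4.73% (M45), 6.40% (M48), 7.58% (M43) and 11.3% (M22), and it was 9.53% to 13.6% in HF+SD mice. The HF+SD range thus included M22 and lay above the other CD mice. The log2 fold change of Tg was 0.45 at 6 weeks (95% interval -0.17 to 1.06, adjusted p = 0.270) and 0.04 at 3 weeks (95% interval -0.20 to 0.27, adjusted p = 0.841). Leaving out M53 turned the 3-week value to -0.01. Tg overlaps the antisense gene Gm17140 by 112 exon bases, and whether strand was used in counting is not given in the sources used here.

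Duox2 (ENSMUSG00000068452.9) makes the hydrogen peroxide used in hormone synthesis, and Duoxa2 (ENSMUSG00000027225.8) is the factor with which it matures. At 3 weeks Duox2 had 50.6 CPM (M96), 60.7 (M53), 64.2 (M55) and 85.5 (M54) in CD mice. In HF+SD mice it had 95 CPM (M7), 99.0 (M20y), 107 (M31) and 107 (M19y). The groups did not overlap, and Duox2 rose 1.56-fold (log2 0.65, SE 0.14, adjusted p = 0.0154), a call lost in 1 fit of all 16 libraries (adjusted p = 0.0610). At 6 weeks its level was 23.6 CPM (M45), 29.3 (M48), 32.5 (M43) and 47.1 (M22) in CD mice, and M22 lay within the HF+SD range of 37.6 to 58.6 CPM. The log2 fold change was 0.57 (95% interval 0.07 to 1.07, adjusted p = 0.0964). Of the mice left out in turn, only leaving out M22 gave a call (0.79, adjusted p = 0.0108). The CD mice then left had the highest muscle shares and the lowest thyrocyte reference levels at 6 weeks. Diet and these amounts cannot be told apart in that fit. Scaling to the thyrocyte reference genes gave 0.14 (adjusted p = 0.599). A skeletal muscle score as covariate gave 0.25 (adjusted p = 0.508). Leaving out both M45 and M48 gave 0.32 (adjusted p = 0.425).

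Duoxa2 passed at 6 weeks, and at 3 weeks its call depended on the test and the scaling. At 6 weeks the CD mice had 46.6 CPM (M45), 47.7 (M48), 72.2 (M43) and 94.8 (M22), and the HF+SD mice had 115 (M5), 130 (M18), 136 (M35) and 161 (M34). The groups did not overlap, and Duoxa2 rose 2.07-fold (log2 1.05, SE 0.24, adjusted p = 0.0163). This call was lost without M34 (log2 0.97, adjusted p = 0.0525). At 3 weeks the levels were 66.4 ± 24.9 CPM and 107 ± 15.6 CPM (SD, n = 4 each), and M54, a CD mouse with 100.4 CPM, was above the lowest HF+SD mouse. The log2 fold change was 0.69 (95% interval 0.17 to 1.21, adjusted p = 0.0740), and without M54 it was 0.96 and passed (adjusted p = 0.00893). It also passed with DESeq2 (0.68, adjusted p = 0.0265) and with libraries scaled to 9 thyrocyte reference genes (0.70, adjusted p = 0.0480).

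Duox1 (ENSMUSG00000033268.9) and Duoxa1 (ENSMUSG00000027224.15), the second oxidase and its factor, had few counts, 19 to 156 per library for Duox1 and 6 to 178 for Duoxa1. At 6 weeks Duoxa1 had 23 counts in M45, 28 in M48, 29 in M22 and 56 in M43, the CD mice, and 6 in M18, 15 in M34, 15 in M35 and 22 in M5, the HF+SD mice. In CPM these were 0.914 ± 0.246 and 0.402 ± 0.162 (SD, n = 4 each), with no overlap. Duoxa1 fell to 0.443 of its CD level (log2 -1.17, SE 0.35, adjusted p = 0.0395). That call was lost when any 1 of M43, M45, M48, M18, M34 and M35 was left out (adjusted p = 0.0526 to 0.0913).

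At 3 weeks Duoxa1 had 42 counts (M54), 53 (M55), 57 (M53) and 178 (M96) in CD mice, and 17 (M7), 18 (M19y), 10 (M20y) and 19 (M31) in HF+SD mice. In CPM, M96 had 4.21 and the next CD mouse 1.41, and the diets did not overlap. Duoxa1 fell to 0.194 of its CD level (log2 -2.37, SE 0.46, adjusted p = 0.00867). Without M96 the log2 fold change was -1.74 and still passed (adjusted p = 0.00572). The transcripts of Duoxa1 and Duoxa2 overlap by 682 exon bases on opposite strands, so that the counts of Duoxa1, the rarer of the pair, are uncertain if strand was not used.

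At 3 weeks Duox1 had 0.790 CPM (M54), 0.916 (M53), 1.49 (M55) and 3.69 (M96) in CD mice, and 0.486 (M31), 0.563 (M19y), 0.646 (M7) and 0.750 (M20y) in HF+SD mice. The groups did not overlap, but the spread between CD mice was wide and the log2 fold change of -1.50 did not pass (95% interval -2.57 to -0.43, adjusted p = 0.0627). It passed without M54 (-1.74, adjusted p = 0.0326), with DESeq2 (adjusted p = 0.0117), with the thyrocyte scaling (adjusted p = 0.0477) and with the muscle covariate (-2.08, adjusted p = 0.0135), whereas without M96 it was -0.81 (adjusted p = 0.119). The muscle share did not overlap between diets at 3 weeks, so that covariate and diet are hard to tell apart. At 6 weeks Duox1 had 1.23 ± 0.416 and 0.822 ± 0.331 CPM (SD, n = 4 each), which overlapped (log2 -0.58, 95% interval -1.34 to 0.19, adjusted p = 0.251). M96 was thus the CD mouse with the lowest Slc5a5 and the highest Duox1 and Duoxa1 at 3 weeks. Its library total of 41503881 counts lay within the range of the other 3-week CD libraries, 34031421 to 42491155.

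Iyd (ENSMUSG00000019762.5), which recycles iodide from iodotyrosines, had a coefficient of variation of 9.46% between CD and 3.93% between HF+SD mice at 3 weeks. The CD mice had 709 CPM (M53), 719 (M96), 824 (M54) and 855 (M55), and the HF+SD mice had 1102 (M7), 1122 (M31), 1151 (M20y) and 1206 (M19y). The diets did not overlap, and Iyd rose 1.47-fold (log2 0.56, SE 0.09, adjusted p = 0.00304). At 6 weeks the CD mice had 487 CPM (M45), 535 (M48), 740 (M22) and 1095 (M43). The HF+SD mice had 1596 CPM (M35), 1747 (M18), 1807 (M5) and 1978 (M34). The groups were again separate, with M43 the highest CD mouse, and Iyd rose 2.49-fold (log2 1.32, SE 0.27, adjusted p = 0.0101). Iyd passed whichever mouse was left out at 3 weeks (adjusted p = 0.000754 to 0.0137) and at 6 weeks (0.00355 to 0.0355). In 1 fit of all 16 libraries the 3-week call was lost (adjusted p = 0.0778).

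**Figure D2:**
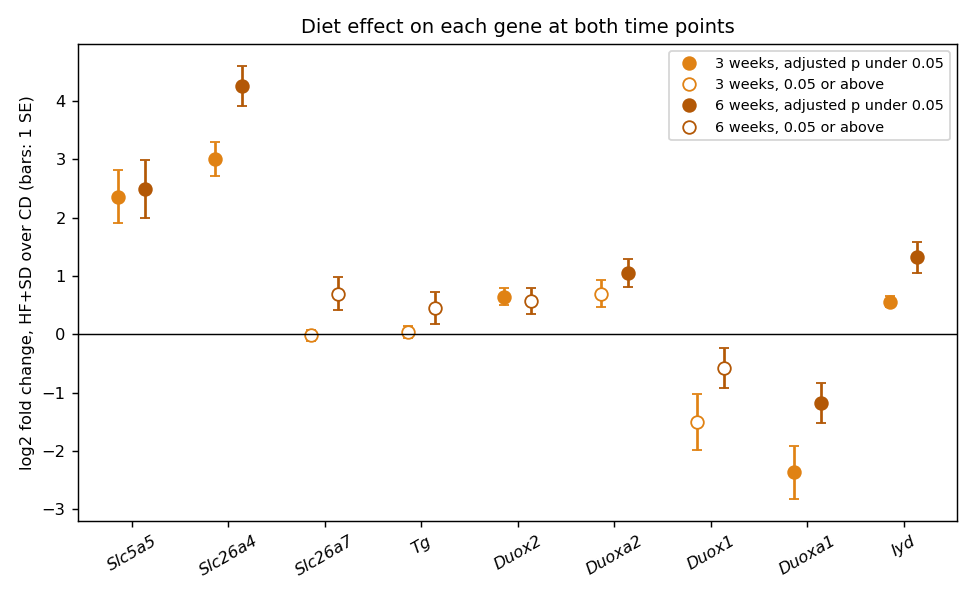
Log2 fold change of HF+SD over CD for each gene at 3 weeks (light) and 6 weeks (dark), with bars of 1 SE and filled points for an adjusted p under 0.05. Slc26a4 (3.00 and 4.26) and Slc5a5 (2.36 and 2.49) lie highest, and Duoxa1 (-2.37 and -1.17) lies lowest.

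Levels can be set side by side between genes when divided by transcript length, here as CPM per kb of exon. In CD mice at 6 weeks the order was Tg (8680), Iyd (440), Slc26a7 (112), Slc5a5 (52.95), Duoxa2 (41.0), Duox2 (4.89), Duox1 (0.234), Duoxa1 (0.230) and Slc26a4 (0.0730), as means of 4 mice. Neighbours whose ranges over the mice overlapped were Slc26a7 and Slc5a5, Slc5a5 and Duoxa2, and Duox1 and Duoxa1. In HF+SD mice at 6 weeks Slc5a5 had 298 CPM per kb, and its range of 175 to 359 overlapped that of Slc26a7, 147 to 205. Slc26a4, at 0.827 to 1.88 CPM per kb, moved above Duox1 (0.105 to 0.245) and Duoxa1 (0.0473 to 0.146).

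In the order of group means, the same 2 shifts were present at 3 weeks. There Slc5a5 had 27.2 to 178 CPM per kb in CD mice, overlapping Slc26a7 (151 to 171), and 483 to 669 in HF+SD mice, above Slc26a7 (135 to 174) and below Iyd (679 to 743). Slc26a4 had 0.0304 to 0.0744 CPM per kb in CD mice, below Duox1 (0.150 to 0.701), and 0.360 to 0.467 in HF+SD mice, above Duox1 (0.0923 to 0.142). Duox2 stood above Duox1 and Duoxa2 above Duoxa1 in every group, with lowest per-library ratios per length of 10.1 and 34.2.

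Ratios of 2 genes within a library do not depend on how libraries are scaled. In all, 6 ratios were compared at each time by an exact two-sided permutation test of the log2 ratio, 12 tests in total, with Benjamini-Hochberg adjustment over them and 0.0286 as the smallest p that 4 against 4 can give. At 6 weeks Slc5a5 to Tg was 0.00101 to 0.00329 in CD and 0.00562 to 0.0110 in HF+SD mice, a mean log2 difference of 2.27. At 3 weeks it was 0.000273 to 0.00195 and 0.00521 to 0.00687, a difference of 2.60. NIS transcripts were therefore more frequent per thyroglobulin transcript in every HF+SD mouse than in any CD mouse (exact p = 0.0286, adjusted p = 0.0429, at each time).

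Slc26a4 to Slc26a7 differed by 3.45 on the log2 scale at 6 weeks and 3.10 at 3 weeks, and Duoxa2 to Duoxa1 by 2.37 and 2.95, each without overlap (exact p = 0.0286, adjusted p = 0.0429, for each of these 4 tests). At 6 weeks Duox2 to Duox1 was 13.0 to 46.9 in CD and 45.5 to 87.4 in HF+SD mice, where M22 and M35 overlapped (log2 difference 1.21, exact p = 0.0571, adjusted p = 0.0686). At 3 weeks it was 13.7 to 108 and 132 to 220 (log2 difference 1.90, exact p = 0.0286, adjusted p = 0.0429). Iyd to Tg differed by 0.53 at 3 weeks (exact p = 0.0286, adjusted p = 0.0429) and by 0.94 at 6 weeks, where M43 lay among the HF+SD mice (exact p = 0.0857, adjusted p = 0.0935). Duox2 to Duoxa2, the oxidase per factor, differed by -0.51 at 6 weeks (exact p = 0.0571, adjusted p = 0.0686) and by -0.09 at 3 weeks (exact p = 0.8286).

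**Figure D3:**
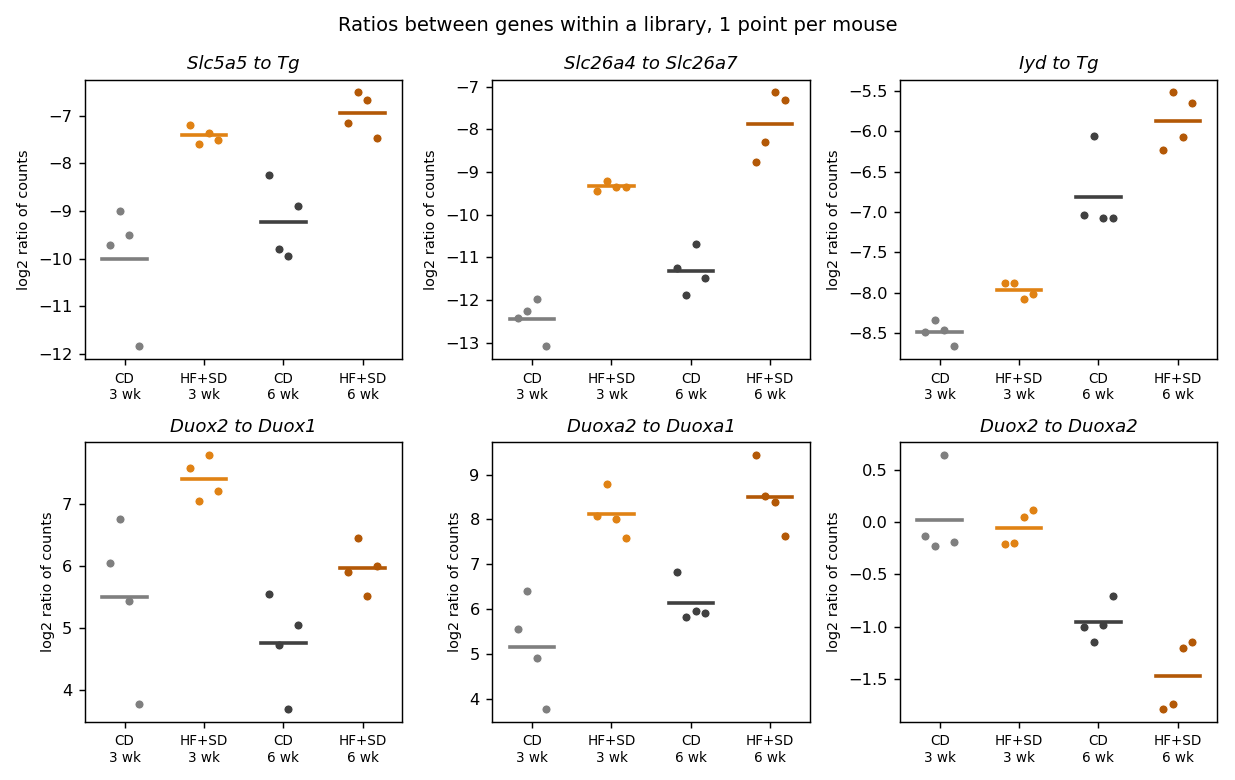
Log2 ratio of the counts of 2 genes in the same library, 1 point per mouse and a line at the mean of 4 mice. Slc5a5 to Tg, Slc26a4 to Slc26a7 and Duoxa2 to Duoxa1 are separated by diet at both time points, and Duox2 to Duoxa2 is not.

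The diet effects at 6 and 3 weeks were compared by an interaction term over all 16 libraries, in which 0.0792% of 18929 genes passed, and 0.0687% did so with a positive difference of 6 minus 3 weeks. None of the 9 genes passed in the edgeR test, and 3 had an unadjusted p under 0.05. These were Slc26a4 with 1.21 (SE 0.46, adjusted p = 0.134), Iyd with 0.72 (SE 0.26, adjusted p = 0.120) and Slc26a7 with 0.67 (SE 0.28, adjusted p = 0.176), as log2 differences of 6 minus 3 weeks. Without M43 the difference passed for Iyd (0.97, adjusted p = 0.0308) and for Slc26a7 (0.94, adjusted p = 0.0341). That fit keeps M45 and M48, the CD mice with the highest muscle shares. Under 2 other scalings, 1 of them to the thyrocyte reference genes, none of these 3 genes passed. The difference was 0.24 to 0.76 for Iyd (edgeR adjusted p = 0.105 to 0.645) and 0.19 to 0.72 for Slc26a7 (0.149 to 0.741). For Slc26a4 it was 0.78 to 1.25 (0.120 to 0.278). For Slc5a5 the difference was 0.08 with a 95% interval of -1.42 to 1.57 (adjusted p = 0.964), which leaves room for a change in either direction. Duox2 (-0.13, interval -0.72 to 0.47) and Duoxa2 (0.31, interval -0.43 to 1.05) did not pass either.

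The CD libraries at 6 weeks held different amounts of muscle and thyrocyte RNA, so the 6-week effects were also computed on other footings. Scaling each library to the 9 thyrocyte reference genes moved the median of all genes to -0.51. On that scale Slc5a5 rose by 2.20 (adjusted p = 0.00712), Slc26a4 rose by 3.80 (adjusted p = 0.00048) and Duoxa1 fell by 1.69 (adjusted p = 0.0188). Relative to the median of all genes, these were 2.71, 4.31 and -1.18. Iyd (0.82, adjusted p = 0.0973) and Duoxa2 (0.63, adjusted p = 0.0596) no longer passed, and the Tg difference was -0.02 (adjusted p = 0.974). Per thyrocyte reference, Duox2 ran from -2.69 to -2.33 (log2) in CD and from -2.85 to -2.09 in HF+SD mice at 6 weeks. At 3 weeks the same ranges, -2.73 to -2.10 and -1.88 to -1.65, were apart.

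With a skeletal muscle score as covariate, Slc5a5 (1.80, adjusted p = 0.0249) and Slc26a4 (4.32, adjusted p = 0.00114) still passed at 6 weeks. Iyd (1.09, adjusted p = 0.0576), Duoxa2 (0.60, adjusted p = 0.0559) and Duoxa1 (-1.13, adjusted p = 0.141) did not. Without M45 and M48, the libraries with the most muscle counts, a choice made after seeing the data, Slc26a4 (4.11, adjusted p = 0.00343) and Iyd (0.97, adjusted p = 0.0217) passed. Slc5a5 (2.13, adjusted p = 0.0506), Duoxa2 (0.71, adjusted p = 0.0537) and Duoxa1 (-1.37, adjusted p = 0.0898) then fell short, with 2 CD mice left. In M22, the CD mouse with the lowest muscle share (0.115%) and the highest thyrocyte reference level (286 CPM), Slc5a5, Slc26a4, Iyd and Duoxa2 were below, and Duoxa1 was above, all 4 HF+SD mice. This follows from the lack of overlap given above for these genes, and it rests on 1 mouse.

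**Figure D4:**
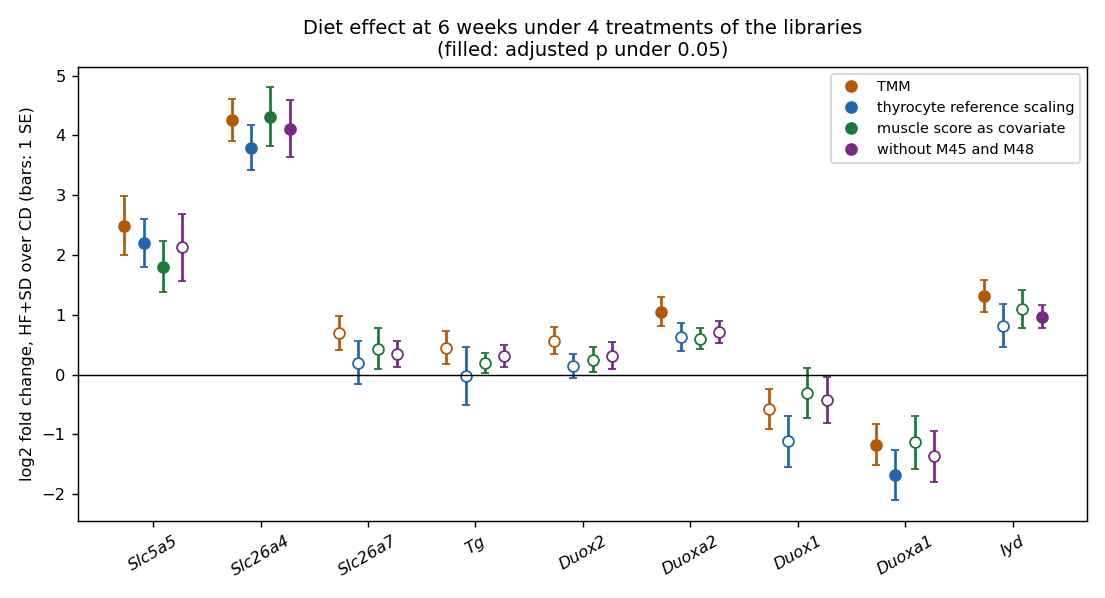
Log2 fold change at 6 weeks with bars of 1 SE under TMM scaling, scaling to thyrocyte reference genes, a muscle score as covariate, and without M45 and M48. Slc26a4 is filled (adjusted p under 0.05) in all 4, from 3.80 to 4.32, while Slc5a5 ranges from 1.80 to 2.49 and is open only without M45 and M48.

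Markers of several other cell types also moved with diet. Over all genes, 12% rose and 9.55% fell at 6 weeks, and 9.07% rose and 5.78% fell at 3 weeks. All 8 endothelial genes rose at both time points, and their summed share of counts at 6 weeks was 0.0237% to 0.0494% in CD and 0.122% to 0.147% in HF+SD mice. At 3 weeks it was 0.0467% to 0.0570% and 0.0907% to 0.131%. Adipocyte genes fell for 7 of 8 at 6 weeks and 6 of 8 at 3 weeks, with shares of 0.0968% to 0.241% (CD) and 0.0554% to 0.104% (HF+SD) at 6 weeks and 0.108% to 0.141% and 0.0348% to 0.0766% at 3 weeks. Of 8 parathyroid and C cell genes 3 fell at each time, and their share at 6 weeks was 0.579% to 2.86% in CD mice, highest in M22, and 0.472% to 0.674% in HF+SD mice.

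Of 6 salivary gland genes 1 rose and 1 fell at 6 weeks and 3 rose and 1 fell at 3 weeks, with shares at 6 weeks of 0.00922% to 0.141% (CD, highest in M43) and 0.158% to 0.451% (HF+SD). Airway genes rose for 3 of 12 and 1 of 10 tested at 6 and 3 weeks, with the largest shares in M34 (0.132%) and M43 (0.121%). Blood and immune genes rose for 2 of 7 and 0 of 8, and of the fibroblast and cartilage genes 1 of 6 fell at 6 weeks and 2 of 7 rose at 3 weeks. In lists this short, 1 gene called is near the share over all genes and is not a result about these cells. What these cells contribute to the results for Slc26a4, Duox1 and Duoxa1, the rarest of the 9 genes, was not tested.

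The rest of the pathway was read from a list of 24 genes, of which 23 were in the table and tested at both times (Kcne2 was not analysed here). At 6 weeks 14 rose and 3 fell, with a median log2 fold change of 0.85, and at 3 weeks 7 rose and 2 fell, with a median of 0.28, beside -0.01 over all genes. The shares of all genes that rose and fell were 12% and 9.55% at 6 weeks, and 9.07% and 5.78% at 3 weeks. With the muscle score as covariate 9 rose and 2 fell at 6 weeks, beside 6.89% and 4.16% of all genes. The calls lost there were Lrp2 (adjusted p = 0.122), Ctsd (0.0641), Kcnq1 (0.0605), Cyba (0.0622), Glis3 (0.0910) and Slc16a10 (0.571). Without M45 and M48, 12 rose and 2 fell, beside 6.61% and 3.76% of all genes. Lrp2, Ctsk, Gnas and Slc16a10 then no longer passed while Cftr did (log2 fold change -1.75, edgeR adjusted p = 0.0156). Among genes of the TSH signal, the receptor Tshr rose from 60.0 ± 22.6 to 206 ± 31.3 CPM at 6 weeks (SD, n = 4 each, log2 1.78, adjusted p = 0.00239) and by 1.14 on the log2 scale at 3 weeks (adjusted p = 0.0493). The 3-week call for Tshr was lost when any 1 mouse other than M55 was left out (adjusted p = 0.0777 to 0.110). Gnas, which encodes the stimulatory G protein subunit, fell by 1.20 at 6 weeks (adjusted p = 0.0116). Of the 5 lineage transcription factors only Glis3 rose, by 1.54 at 6 weeks (adjusted p = 0.0129) but without a call under the muscle covariate (1.21), and Pax8, Nkx2-1, Foxe1 and Hhex passed at neither time, with log2 fold changes from -0.15 to 0.48.

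Of 5 ion transport genes beside the iodide carriers, 4 rose at 6 weeks, and 3 rose and 1 fell at 3 weeks. Over all genes, 12% rose at 6 weeks, and 9.07% rose and 5.78% fell at 3 weeks. Ano1, an apical calcium-activated anion channel, rose from 15.7 ± 5.24 to 71.1 ± 14.5 CPM at 6 weeks and from 23.4 ± 4.62 to 56.3 ± 6.28 CPM at 3 weeks (SD, n = 4 each, adjusted p = 0.000804 and 0.000682). Atp1b1 rose by 0.92 at 6 weeks (adjusted p = 0.0126). The potassium channel Kcnq1 rose by 1.31 and 0.62 (adjusted p = 0.00949 and 0.0082), and Slc5a8 by 1.49 and 0.34 (adjusted p = 0.00628 and 0.0320) at 6 and 3 weeks. For Slc5a8 the 3-week call was lost without any 1 of M54, M96, M7, M19y, M20y and M31 (adjusted p = 0.0596 to 0.0823), and with thyrocyte scaling (adjusted p = 0.118). Cftr, a chloride channel, fell at 3 weeks from 14.1 ± 3.28 to 5.09 ± 0.764 CPM (SD, n = 4 each, log2 -1.47, adjusted p = 0.00122).

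With TMM scaling, but not with thyrocyte scaling, all 5 genes of thyroglobulin uptake and proteolysis rose at 6 weeks, namely Lrp2 (0.99, adjusted p = 0.0188), Ctsb (0.83, adjusted p = 0.0068), Ctsd (0.46, adjusted p = 0.0420), Ctsk (0.85, adjusted p = 0.0252) and Ctsl (0.99, adjusted p = 0.0083). Scaled to the thyrocyte reference genes none of the 5 passed (Lrp2 0.51, Ctsb 0.31, Ctsd -0.07, Ctsk 0.29 and Ctsl 0.48, edgeR adjusted p = 0.144 to 0.860). At 3 weeks Ctsb (0.44, adjusted p = 0.0127) and Ctsd (0.40, adjusted p = 0.00695) rose. When mice were left out in turn at 6 weeks, Ctsd was lost without any 1 of M43, M48, M5, M18, M34 and M35, Ctsk without any 1 of M45, M5, M18 and M35, and Lrp2 without M18 or M34 (adjusted p = 0.0514 to 0.121). The deiodinases moved in opposite directions. Dio1 rose by 1.90 and 1.28 (adjusted p = 0.000775 and 0.000598), and Dio2 fell by 1.92 and 1.38 (adjusted p = 0.00411 and 0.00321) at 6 and 3 weeks. Slc16a10, which carries thyroid hormone out of cells, fell by 1.16 at 6 weeks (adjusted p = 0.0493), a call lost without any 1 of M45, M48, M5, M18, M34 and M35 (adjusted p = 0.0883 to 0.119). Nox4 (0.93, adjusted p = 0.0396) and Cyba (0.88, adjusted p = 0.0121), of the other NADPH oxidase genes, rose at 6 weeks, and Nox4 was lost when any 1 mouse other than M22 was left out (adjusted p = 0.0570 to 0.0918). On the thyrocyte reference scale at 6 weeks 6 of the 23 genes rose and 5 fell, beside 4.4% and 24.9% of all genes, and Atp1b1, Nox4 and Cyba (adjusted p = 0.197, 0.502 and 0.0980) were among the calls lost.

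**Figure D5:**
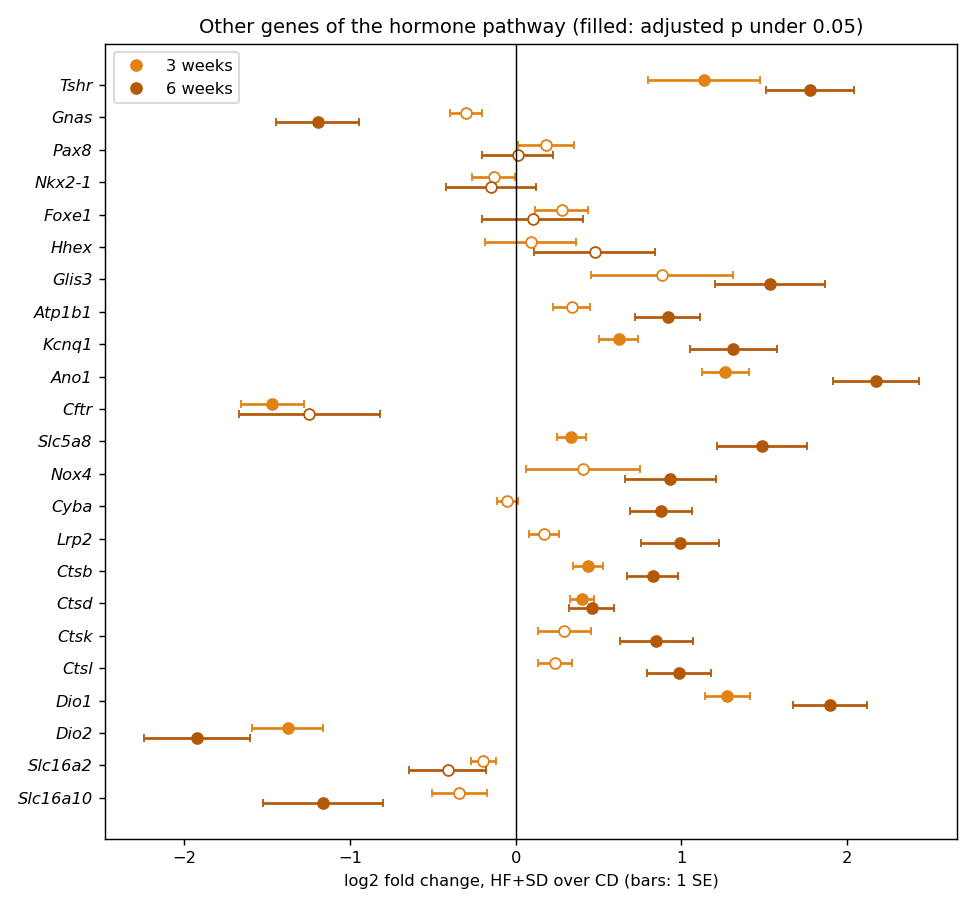
Log2 fold change of HF+SD over CD for the 23 other pathway genes at 3 weeks (light) and 6 weeks (dark), with bars of 1 SE and filled points for an adjusted p under 0.05. Ano1 (1.27 and 2.18) and Dio1 (1.28 and 1.90) lie farthest right at 6 weeks, and Dio2 (-1.38 and -1.92) farthest left.

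Relatives of the iodide carriers were examined as families, with 16 of 25 listed genes in the table. Beside Slc5a8, the sugar transporter Slc5a9 rose by 1.71 at 6 weeks and 1.42 at 3 weeks (adjusted p = 0.000783 and 0.00258), and Slc5a3, a carrier of myo-inositol, rose by 1.96 at 6 weeks (adjusted p = 0.0138). Slc5a6, a vitamin transporter, fell by 0.39 at 3 weeks (adjusted p = 0.0291), a call lost without any 1 of M96, M19y, M20y and M31 (adjusted p = 0.0644 to 0.0921). In the Slc26 family, Slc26a10 rose from 529 ± 279 to 1466 ± 207 CPM at 6 weeks and from 690 ± 224 to 1707 ± 71.7 CPM at 3 weeks (SD, n = 4 each, adjusted p = 0.0149 and 0.0034), and Slc26a6 fell by 0.87 at 6 weeks (adjusted p = 0.0450). The call for Slc26a6 was lost without any 1 of M45, M48, M5, M18, M34 and M35 (adjusted p = 0.0697 to 0.120), and without both M45 and M48 the 6-week calls for Slc5a3 (adjusted p = 0.0759), Slc26a10 (adjusted p = 0.0656) and Slc26a6 (adjusted p = 0.307) were lost. With the muscle covariate Slc5a3 (adjusted p = 0.0648) and Slc26a6 (adjusted p = 0.417) were lost at 6 weeks and Slc5a6 (adjusted p = 0.0849) at 3 weeks. Of the 13 family genes tested at 6 weeks, 5 rose, 1 fell and 7 did not pass. Of the 14 tested at 3 weeks, 3 rose, 1 fell and 10 did not pass. Over all genes, 12% rose and 9.55% fell at 6 weeks (21.5% in all), and 9.07% rose and 5.78% fell at 3 weeks (14.9% in all).

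The genes with the pattern most like that of Slc5a5 were found by the mean absolute difference in log2 CPM, each gene taken relative to its CD mean at the same time, over the 16 libraries and 13940 genes. They were Ccna2 (0.42), Cacna2d2 (0.43), Gm13562 (0.43), Shisal1 (0.44) and Ndc80 (0.44). Ccna2 and Ndc80 act in cell division and Cacna2d2 is a calcium channel subunit. For Tg, 4 of the 5 genes most alike were Polr2a (0.0849), Zfyve27 (0.0900), Shisa5 (0.0910) and Mtch1 (0.0910), each with log2 fold changes between 0.01 and 0.46. The distances are a description, since all genes share the same 16 libraries.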

How the data were processed

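Whole-thyroid RNA of 16 mice was sequenced, 1 library per mouse. The authors deposited raw counts per gene, with no normalization, and a signal table in which each raw count is divided by 1 size factor per library. The submitters' processing notes name mm39, Trim Galore 0.6.7, STAR, DESeq2 1.36.0 and R 4.1.0. The counting tool, its use of strand and the annotation were not stated there. The study's text gives fewer CD mice at 6 weeks than were deposited, and all deposited mice were used.

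Diets were compared within a time point on the deposited counts by the quasi-likelihood test of edgeR 4.0.16 (R 4.3.3) with TMM factors, filterByExpr by group and Benjamini-Hochberg adjustment over all genes tested, 18249 at 6 weeks and 17238 at 3 weeks. A gene rose or fell at an adjusted p under 0.05. SE is the absolute log2 fold change over the square root of F, and 95% intervals use the t distribution with the test's degrees of freedom. Exact permutation tests were two-sided, with p = 0.0286 the smallest possible. Alternatives were DESeq2 1.42.0, limma 3.58.1 on log2 of the signal plus 1, other scalings and filters, a muscle score and each mouse left out. Transcript length is the union of exons in GENCODE M21, from which 20841 of 21640 genes had a symbol. The procedure was tested on simulated counts. Library totals set the precision of rare genes. The edgeR p-values set the diet difference against the spread between mice of a group, whose counts differed by more than counting error.

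Members and lists were chosen with earlier results of these data known. Named were all 9 members, the pathway genes that passed, family genes of at least 1 CPM that passed, and the 5 genes most like Slc5a5 and Tg. A gene of the pathway list and 1 of those most like Tg are not reported here. Cell type lists were skeletal muscle, airway, salivary gland, parathyroid and C cells, adipocytes, endothelium, blood and immune cells, and fibroblasts and cartilage.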

Additional observations from a re-analysis of the deposited data

Results flagged for a closer look

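Among 60 groups of 4 mice checked (levels of the 9 genes and 6 ratios), 6 held a mouse far from the other 3 by Dixon's criterion, which chance meets in about 1 of 20 groups. All 6 were CD groups. For Duoxa1, M96 had 4.21 CPM at 3 weeks (nearest mouse 1.41) and M43 had 1.28 CPM at 6 weeks (nearest 0.832). For Slc26a7, M55 had 931 CPM at 3 weeks (nearest 832). The ratio of Duoxa2 to Duoxa1 was 114 in M22 at 6 weeks (nearest 62.4), and that of Duox2 to Duoxa2 was 1.56 in M55 at 3 weeks (nearest 0.913). The ratio of Iyd to Tg was 0.0150 in M43 at 6 weeks (nearest 0.00760).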

How the results depend on the processing

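At 6 weeks the 4 members higher became 2 with thyrocyte reference scaling, 2 with the muscle covariate and 2 without M45 and M48, 3 with at least 10 counts in every library and 5 in 1 fit of all 16 libraries, where Slc26a7 passed. The 1 lower became 0 with that count minimum, which removed Duoxa1 and Slc26a4, 0 with the muscle covariate and 0 without M45 and M48. Over all genes at 6 weeks, 12% were higher and 9.55% lower in the main fit, and 4.4% and 24.9% with thyrocyte scaling. With the muscle covariate they were 6.89% and 4.16%, without M45 and M48 6.61% and 3.76%, and in 1 fit of all 16 libraries 14.5% and 18.2%. At 3 weeks the 4 higher became 2 in 1 fit of all 16 libraries (Iyd and Duox2 lost), 2 with the fold change minimum, 3 with the count minimum, and 5 with DESeq2 and with thyrocyte scaling, where Duoxa2 passed, and the 1 lower became 2 (Duoxa1 and Duox1) with DESeq2, with thyrocyte scaling and with the muscle covariate. Over all genes at 3 weeks, 9.07% were higher and 5.78% lower in the main fit, and 5.12% and 2.38% in 1 fit of all 16 libraries. With DESeq2 they were 9.41% and 7.52%, with thyrocyte scaling 7.05% and 3.25%, and with the muscle covariate 5.88% and 3.17%. Leaving out mice gave 3 to 5 members higher and 0 to 1 lower at 6 weeks, and 4 to 5 higher and 1 to 2 lower at 3 weeks. Of the pathway list, 14 higher at 6 weeks became 6 (thyrocyte scaling), 9 (muscle covariate) and 6 (fold change minimum), 3 lower became 5 (thyrocyte scaling), and 7 higher at 3 weeks became 3 (fold change minimum). Thyrocyte scaling at 6 weeks changed all genes from 2184 higher and 1743 lower to 803 and 4551.

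Signs turned for the following log2 values. With thyrocyte scaling Tg (-0.0227) and Ctsd (-0.0682) turned at 6 weeks, as did the difference between time points for Slc5a5 (-0.19), Tg (-0.0746) and Duoxa2 (-0.0679). Slc26a7 at 3 weeks was 0.0015 with upper-quartile factors, 0.0056 with thyrocyte scaling and 0.0407 with the muscle covariate. Over mice left out, Slc26a7 ran from -0.0767 to 0.0457 and Tg from -0.0108 to 0.0777 at 3 weeks, and Duox2 to Duoxa2 from -0.17 to 0.12. The difference between time points ran from -0.22 to 0.72 for Slc5a5 and from -0.27 to 0.11 for Duox2. Where no cause is given, the cause was not tested. No paired analysis was possible because the mice of the groups share no replicate numbers.

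Slc26a4, Duox1 and Duoxa1 rest on few counts, and Duoxa1 lies over Duoxa2 on the opposite strand. At 6 weeks the CD libraries differ in muscle and thyrocyte RNA, and time point and library series cannot be told apart. At 3 weeks the muscle share does not overlap between diets, so the muscle covariate and diet are hard to tell apart there.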
